A study of Mus musculus with 2 samples.

Results

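The genes described here are the semaphorins, plexins and neuropilins of the mouse, together with a pair of plexin-domain-containing genes, measured in tissue above and below the dorsal aorta at embryonic day 10.5. They were chosen by symbol alone, as the features named Sema with a class number and letter, Plxn, Plxdc or Nrp, and 33 of the 24675 features with a symbol matched: 20 semaphorins, 9 plexins, 2 neuropilins and 2 Plxdc genes. Dorsal tissue was the piece lying between the notochord and the top of the vessel, and ventral tissue the piece beneath the vessel. Both were cut by laser from 20 µm cryosections of the same C57BL/6 embryos, with no treatment or transgene named, and the sources used here give neither the number of embryos nor whether they were pooled. RNA was hybridised to Affymetrix Mouse Gene 2.0 ST arrays, 1 per tissue and both labelled biological replicate 4. No value below therefore has an error, a replicate check or a p-value. Whether fewer cells of a type or less RNA per cell lies behind a lower value cannot be told apart in such tissue.

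Semaphorins are guidance cues that share an extracellular sema domain. Those of class 3 are secreted and mostly bind neuropilins, which hold them to plexins, the receptors that signal. Those of classes 4, 5 and 6 span the membrane and bind plexins directly, and the class 7 protein is held by a lipid anchor. The inside of a plexin carries a GTPase-activating domain that switches off Rap proteins and so loosens a cell's grip on its matrix. In the embryonic trunk these cues keep motor axons, neural crest cells and sprouting vessels out of some territories, and neuropilins also serve vascular endothelial growth factors (VEGFs) as co-receptors.

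Few of these genes gave a signal above background in either tissue, and 2 of them differed by 2-fold or more. Values are log2 expression levels, on which a step of 1 is a doubling. A level was called background when it did not exceed 3.92, the 95th percentile, with both arrays pooled, of 1365 odorant (Olfr) and vomeronasal (Vmn) receptor genes, which stand in here for silent genes. By that mark 5 members were above background in dorsal tissue and 5 in ventral tissue, 15.2% of the members on each array, against 24.2% of all features in dorsal and 23.8% in ventral tissue. Sema3f and Sema6d were above it on both arrays, Sema3a, Sema5a and Plxnb2 in dorsal tissue alone, and Sema6a, Nrp1 and Plxna1 in ventral tissue alone. The 8 genes make up 24.2% of the members, beside 28.8% of all features above background on 1 array or both. On neither array did any of the 33 pass 5.48, the 99th percentile of those receptors, whereas 10.7% of all features did. Because probes differ in how well they bind, levels of different genes are not compared here other than with this mark.

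**Figure D1:**
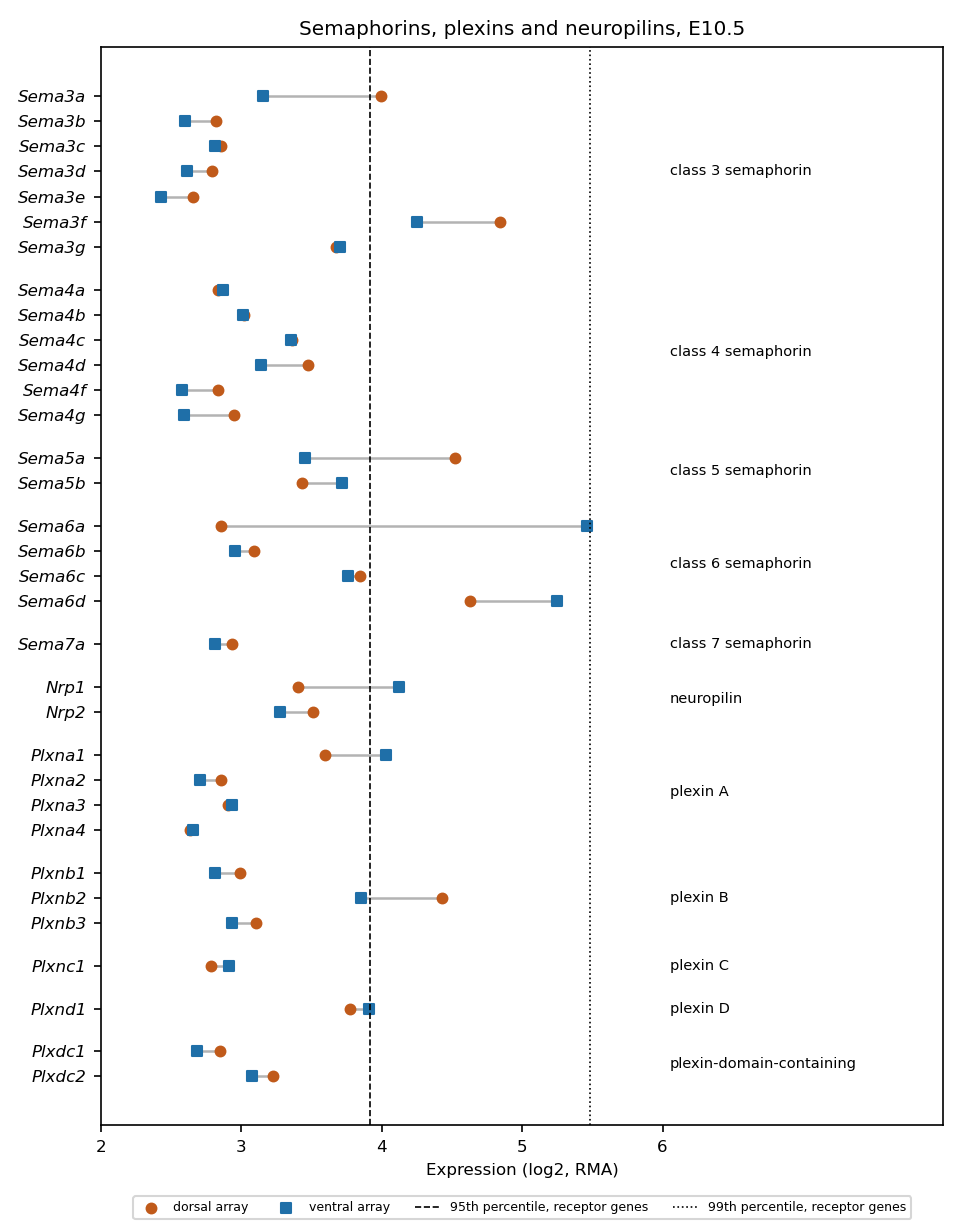
Log2 expression of the 33 genes in the dorsal array (circles) and the ventral array (squares), 1 array per tissue, grouped by family. The dashed and dotted lines are the 95th and 99th percentiles of the receptor genes, 3.92 and 5.48. The widest gap is that of Sema6a, at 2.85 dorsally and 5.46 ventrally, and 25 genes lie left of the dashed line on both arrays.

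The difference of each gene was taken as ventral minus dorsal. Of the 33 members, 1 differed 2-fold or more in favour of ventral tissue with its higher value above background, and 1 in favour of dorsal tissue. That is 3.03% of the members in each direction, against 5.10% of all features in the ventral and 2.44% in the dorsal direction, so the members' counts were near those of the whole array. With no condition on level the same counts of 1 and 1 were found, beside 5.36% and 2.79% of all features. At a lower limit of 1.5-fold there were 3 in each direction: Sema6a, Nrp1 and Sema6d in ventral tissue and Sema5a, Sema3a and Sema3f in dorsal tissue. These are 9.09% of the members each way, beside 8.02% and 5.55% of all features. Sema6d fell short of 1.5-fold after quantile normalization, at 0.41 on the log2 scale, and Sema3f after centring on the median of all features and after a loess on level, at -0.49 and -0.55, while Plxnb2 passed it after quantile normalization, at -0.61. The median difference over all 33 members was -0.14, and that over all features was -0.11, which shows that the typical feature itself read slightly lower on the ventral array. Of the members, 22 were higher in dorsal and 11 in ventral tissue, and against the median of all features the split was 18 and 15. The ventral share of 33.3% stands beside 36.6% of all features with the higher value ventrally.

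Start-site windows of 300 bases, 250 before and 50 after an annotated start, were held for 26 of the 33 genes in a RefSeq table of GRCm38.p6, with 37 windows in all. Their median GC content was 63.7%, against 56.3% over 21255 windows of protein-coding genes. The ratio of observed to expected CG dinucleotides was alike, with medians of 0.58 and 0.57. None of the 37 windows held TATAAA on either strand, beside 12.6% of the windows of protein-coding genes. CACGTG, which reads the same on both strands, was in 3 windows or 8.11%, beside 7.84%. GACCACCCA, the letters bound by the Gli factors of Hedgehog signalling, was in none, beside 0.179%. The 3 windows printed here belong to the members above background that had a single window, and show how unlike their starts are. Each is the 250 bases before the start, all on the plus strand, with CG dinucleotides in capitals: Sema5a at chr15:32244563-32244812, Nrp1 at chr8:128358823-128359072 and Sema3a at chr5:13396534-13396783.
Sema5a: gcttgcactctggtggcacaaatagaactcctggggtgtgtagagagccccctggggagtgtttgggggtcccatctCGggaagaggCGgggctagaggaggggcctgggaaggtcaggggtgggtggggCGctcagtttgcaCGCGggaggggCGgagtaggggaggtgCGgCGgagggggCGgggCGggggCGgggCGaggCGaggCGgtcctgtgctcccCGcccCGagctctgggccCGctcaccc
Nrp1: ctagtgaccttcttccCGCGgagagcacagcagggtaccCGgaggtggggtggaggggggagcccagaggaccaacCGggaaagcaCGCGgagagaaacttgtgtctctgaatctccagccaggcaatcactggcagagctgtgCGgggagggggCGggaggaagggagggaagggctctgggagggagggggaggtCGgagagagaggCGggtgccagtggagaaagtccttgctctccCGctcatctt
Sema3a: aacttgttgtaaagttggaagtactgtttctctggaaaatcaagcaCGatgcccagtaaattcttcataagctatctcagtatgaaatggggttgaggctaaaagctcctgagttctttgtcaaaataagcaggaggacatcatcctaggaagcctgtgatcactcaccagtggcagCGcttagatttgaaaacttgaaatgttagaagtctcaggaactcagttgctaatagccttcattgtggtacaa

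The stretch before Sema5a held 17 CG dinucleotides at a GC content of 72.0%, that before Nrp1 held 11 at 64.4%, and that before Sema3a held 2 at 40.8%. Sema5a and Sema3a, both with the higher value in dorsal tissue, had the most and the fewest of the 3. The expression values come from whole transcripts and do not say which start was used.

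The class 6 semaphorins, transmembrane ligands of the A-type plexins, included the member with the widest difference. Sema6a, which acts in axon guidance and in the migration of neurons and endothelial cells, was measured at 2.85 dorsally and 5.46 ventrally. The dorsal value lay at background, so the excess in ventral tissue is given as a bound of at least 2.91-fold, and the measured difference was 2.61 on the log2 scale. Of all features, 204 or 0.827% had a difference at least as large in that direction. The widest ventral excess of a receptor gene was 1.59, though 18 of the 1365, or 1.32%, reached the ventral level of Sema6a on an array. Sema6d, a ligand of Plxna1 with roles in the forming heart, was above background in both tissues, at 4.63 dorsally and 5.25 ventrally, a 1.54-fold excess that stayed within 2-fold. Both genes were therefore higher under the aorta than above it, Sema6d by less. Sema6b and Sema6c, the other two of the class, were at background on both arrays, Sema6b at 3.09 dorsally and 2.95 ventrally. Sema6c came close to the mark, at 3.84 dorsally and 3.76 ventrally.

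Sema5a, of the class 5 semaphorins, which carry thrombospondin repeats beside the sema domain, was the member with the widest excess in dorsal tissue. The gene, with the CG-rich start shown, was measured at 4.52 dorsally and 3.45 ventrally, the latter at background, which gives a bound of at least 1.52-fold and a measured difference of -1.07. The value sits at the edge of the 2-fold limit: taken relative to the median of all features it was -0.97, which is within 2-fold. Of all features, 575 had a dorsal excess at least as large. The widest dorsal difference of a receptor gene was -1.73, beyond that of Sema5a. Of the 1365 receptor genes, 11 were at least 2-fold higher dorsally with the higher value above background, and 1 ventrally. The related Sema5b was at background on both arrays, at 3.43 dorsally and 3.71 ventrally.

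The class 3 semaphorins are the secreted ligands of neuropilins. Of the 7, 6 had a higher dorsal than ventral value, 5 of 7 relative to the median of all features. Only 36.6% of all features had the higher value ventrally, so a dorsal lean is not particular to this class. Sema3f, a repellent that acts through Nrp2 on trunk neural crest cells and axons, was above background on both arrays, at 4.84 dorsally and 4.25 ventrally, a 1.51-fold dorsal excess. Sema3a, the classical repellent of sensory and motor axons, which acts through Nrp1 and whose start is poor in CG, was measured at 3.99 dorsally and 3.16 ventrally. Its dorsal value passed the mark by little, so that the bound is only at least 1.05-fold, although the measured difference was -0.84. These were the members of the class above background, both higher in dorsal tissue. The other 5, Sema3b, Sema3c, Sema3d, Sema3e and Sema3g, lay between 2.43 and 3.70 on both arrays, and their differences ran from -0.23 to 0.03. Sema3e, the ligand that binds Plxnd1 without a neuropilin and patterns intersegmental vessels, was among them, at 2.66 dorsally and 2.43 ventrally. Sema3d and Sema3a are adjacent protein-coding genes in the RefSeq annotation of GRCm38.p6, Sema3e lies 3 coding genes beyond Sema3a, and Sema3b and Sema3f are also separated by 3.

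No class 4 or class 7 semaphorin exceeded background. The 6 class 4 genes, which encode membrane ligands mainly of the B-type plexins, lay between 2.58 and 3.48 on both arrays. Their differences ran from -0.36 for Sema4g to 0.04 for Sema4a. Sema4d, the ligand of Plxnb1 known for its action on immune and endothelial cells, was measured at 3.48 dorsally and 3.14 ventrally, and Sema4c, a ligand of Plxnb2, at 3.36 and 3.35. Sema7a, the lipid-anchored ligand of Plxnc1 and of integrins that contain the beta 1 chain, was measured at 2.94 dorsally and 2.81 ventrally. Differences between the tissues in these 7 genes were not detectable at this signal.

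**Figure D2:**
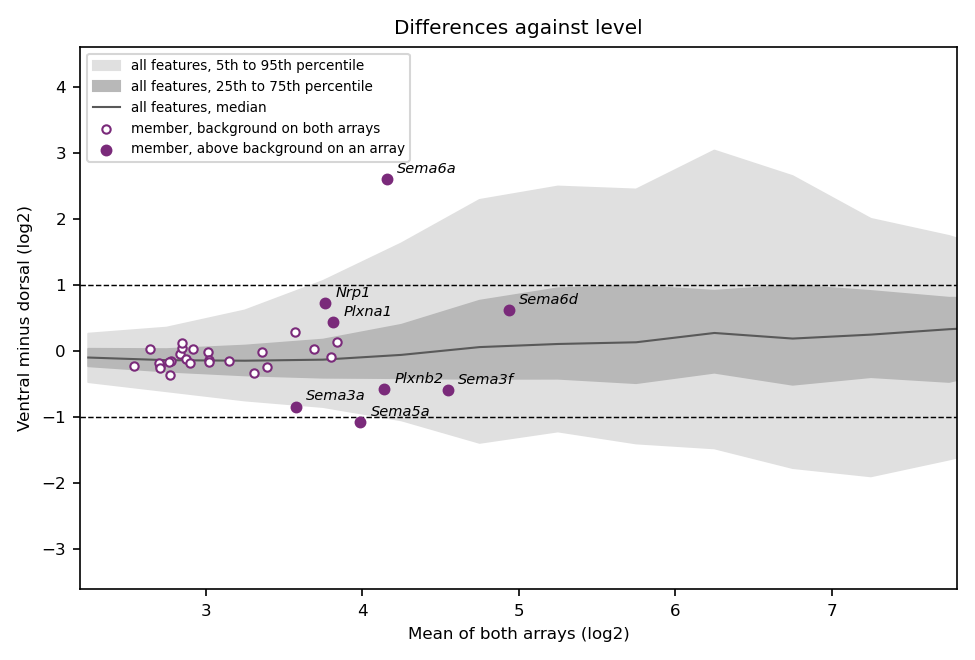
Ventral minus dorsal log2 difference of each of the 33 genes against the mean of both arrays, over bands that hold the 25th to 75th and the 5th to 95th percentiles of all features at the same level, in steps of 0.5. Sema6a lies above the wider band and Sema5a below it, and the other 31 genes lie inside; dashed lines mark 2-fold.

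Differences among all features widened with level, so each member was also set beside the features of its own level. At the level of Sema6a, between 4 and 4.5 as the mean of both arrays, the 5th and 95th percentiles of 1783 features were -1.05 and 1.63. At that of Sema5a, between 3.5 and 4, they were -0.84 and 1.06 over 2953 features. Sema6a was thus above and Sema5a below the range that holds the central 90% of features of like level, and the other 31 members were inside theirs. The 2 genes are 6.06% of the members, where 10% of all features lie outside by construction.

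The neuropilins are the co-receptors that bind class 3 semaphorins and VEGFs. Nrp1, which is found on arterial endothelium and on axons, was measured at 3.40 dorsally and 4.12 ventrally. The dorsal value was at background, which gives a ventral excess of at least 1.15-fold, with a measured difference of 0.72. Nrp2, the partner of Sema3f and a gene of veins, lymphatics and neural crest, was at background on both arrays, at 3.51 dorsally and 3.27 ventrally. Nrp1 was therefore higher in the tissue where its ligand Sema3a was lower, neither difference reaching 2-fold.

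Among the plexins, the signalling receptors, 2 of 9 were above background, each in 1 tissue. Plxnb2, a receptor of class 4 semaphorins that is widely expressed in embryonic epithelia and progenitors, was measured at 4.43 dorsally and 3.85 ventrally, a dorsal excess of at least 1.42-fold. Plxna1, a receptor of Sema6d and, with Nrp1, of Sema3a, was measured at 3.60 dorsally and 4.03 ventrally, a ventral excess of at least 1.08-fold. Plxnd1, the endothelial receptor of Sema3e, fell just short of the mark, at 3.77 dorsally and 3.91 ventrally. Set against a mark taken from each array alone, 4.06 in dorsal and 3.83 in ventral tissue, Plxnd1 and Plxnb2 counted as above background in ventral tissue and Sema3a no longer did in dorsal tissue. The ventral 4.03 of Plxna1 lay under the dorsal mark of 4.06, so that mark leaves its ventral excess without a bound. The bounds of Nrp1 and Sema6a would be smaller with it. Plxna2 and Plxna4, the receptors of Sema6a, were at background on both arrays, Plxna2 at 2.85 dorsally and 2.70 ventrally and Plxna4 at 2.63 and 2.66. The gene with the widest ventral excess thus had both of its usual receptors at background in both tissues. Plxna3, Plxnb1, Plxnb3 and Plxnc1 were at background as well, with differences from -0.18 for Plxnb1 to 0.13 for Plxnc1. Plxdc1 and Plxdc2, membrane proteins that share a plexin-like domain but are not plexins, were measured at 2.84 and 3.22 dorsally and at 2.68 and 3.08 ventrally, all at background.

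The genes that act with these receptors were read from 3 lists. They cover neuropilin ligands and co-receptors, cytoplasmic effectors, and other receptors and processing enzymes. Of 62 measured genes, 31 were above background on an array, and 7 were higher ventrally and 2 dorsally by the 2-fold limit with the higher value above background, which left 53. That is 11.3% and 3.23%, beside 5.10% and 2.44% of all features, and the median difference over the 62 genes was -0.09. These shares are not like for like, since a gene at background cannot pass, and 28.8% of all features were above background, beside 31 of 62 here. Of the 7101 features above background, 1258 passed the limit ventrally and 601 dorsally, beside 7 and 2 of these 31. Without Kitl, described below, the ventral count was 6. The limit carries the condition on background in all gene lists here. In the neuropilin list, 2 of 17 genes were higher ventrally by this limit and none dorsally. Beside VEGFs and their receptors, that list held other genes, such as L1cam, Met and Hgf. Kdr, the main signalling VEGF receptor of endothelium and a partner of Nrp1, was measured at 3.75 dorsally and 4.83 ventrally, at least 1.88-fold higher there. Kitl, which encodes stem cell factor and is no neuropilin ligand although it stood in this list, was at 2.56 dorsally and 7.47 ventrally, at least 11.7-fold higher, and without it the count was 1 of 16. Vegfa, the main ligand of Kdr, had the higher dorsal value, at 4.52 dorsally and 4.09 ventrally. So did Vegfb, a ligand of Flt1 that binds Nrp1, at 7.14 and 6.18, within 2-fold on the deposited values but past it after quantile normalization, with a difference of -1.25. Vegfc, the lymphatic growth factor that binds Nrp2, passed the mark in ventral tissue only, at 3.51 and 3.93. Flt1, Flt4, Pgf and Vegfd were at background on both arrays.

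Of 31 measured effectors, 2 passed the limit in the dorsal and 2 in the ventral direction. Rap1b, a small GTPase of the kind that plexins inactivate, was measured at 9.08 dorsally and 5.85 ventrally, a 9.36-fold dorsal excess. Rap1a, of the same kind, had the higher value ventrally, at 6.14 dorsally and 6.53 ventrally, within 2-fold. Rnd3, of the Rnd GTPases that bind plexins, was at 7.98 and 5.91, 4.18-fold higher in dorsal tissue. In the other direction Arhgef12, a nucleotide exchange factor that couples to B-type plexins, was at 4.10 dorsally and 5.55 ventrally, a 2.74-fold excess. Ranbp9, a scaffold protein reported to bind plexin A, was at 5.50 and 6.83, a 2.52-fold excess. Cdk5, a kinase that acts downstream of Sema3a, was at 3.37 dorsally and 4.31 ventrally, within 2-fold on the deposited values but past it after centring and after the loess, with differences of 1.05 and 1.07. Mras was more than 2-fold apart, at 2.51 and 3.54, but at background on both arrays. The effectors past the limit were thus divided in direction, and the pair of dorsal excesses was the wider.

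Of the 14 other receptors and modifiers, 3 passed the limit in the ventral direction and none in the dorsal one. Itgb1, the beta 1 integrin chain that binds Sema7a, was measured at 6.49 dorsally and 7.59 ventrally, a 2.14-fold excess. Itgav, the alpha V chain, was at 4.44 and 5.56, a 2.18-fold excess. After quantile normalization of the columns both fell within 2-fold, at 0.78 and 0.93 on the log2 scale. Mmp14, a membrane protease that sheds Sema4d, was at 4.46 and 5.85, a 2.61-fold excess. The proprotein convertase Pcsk5 was at 3.59 dorsally and 4.08 ventrally and the sheddase Adam10 at 5.51 and 5.96, both within 2-fold.

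**Figure D3:**
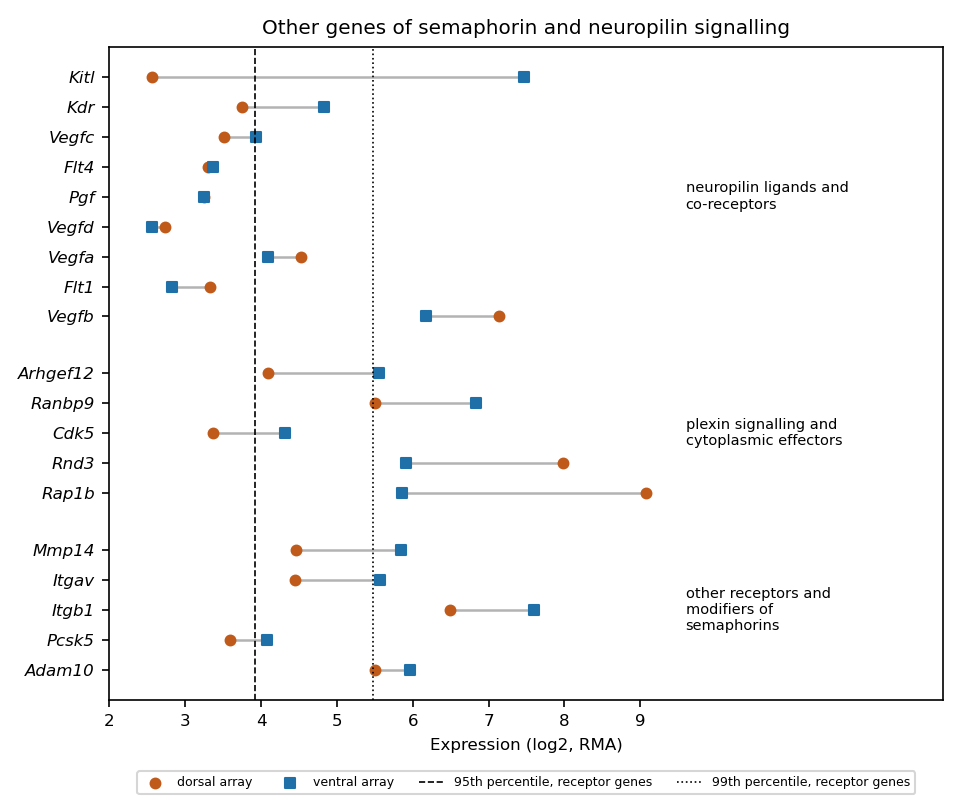
Log2 expression of the pathway genes named in the text, without Rap1a and Mras. Circles are the dorsal array and squares the ventral array, 1 array per tissue. The 95th and 99th percentiles of the receptor genes are drawn as dashed and dotted lines. Rap1b and Rnd3 lie to the right in dorsal tissue, at 9.08 and 7.98, and Kitl, Itgb1 and Mmp14 in ventral tissue, at 7.47, 7.59 and 5.85.

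Markers of the cell types that such pieces could hold differed between the arrays as well. The counts stand beside 5.10% of all features past the 2-fold limit ventrally and 2.44% dorsally. Those shares include features at background, which cannot pass. Of the 7101 features above background, 1258 passed ventrally and 601 dorsally. In lists this short, 1 gene past the limit does not set a list apart from those shares. Of 13 endothelial markers 3 passed the 2-fold limit ventrally, Cdh5, Emcn and Kdr, and none dorsally. The other endothelial markers were divided, so that 7 of the 13 had the higher value ventrally and 6 dorsally, with a median difference of 0.03 and mean log2 levels of 3.77 dorsally and 4.18 ventrally. Of 9 markers of coelomic epithelium and visceral mesenchyme 4 were higher ventrally by that limit, with means of 3.63 and 4.93. Of 7 smooth muscle markers 3 were, with means of 3.69 and 4.67, and 2 after quantile normalization. With no limit, the smooth muscle list had 4 markers higher ventrally and 3 dorsally. Of 10 neuronal markers 3 were higher ventrally and 1 dorsally, with means of 3.97 and 4.39. Higher dorsally were 3 of 10 sclerotome markers, with means of 4.85 and 4.11, as were 2 of 7 notochord markers, 1 of 7 myotome markers and 1 of 10 blood markers. Centring on the median of all features turned the notochord count to 1 each way, the myotome count to 1 ventrally and none dorsally, and the blood count to none. Of 6 markers of neural crest and glial precursors 1 was higher in each tissue, and Sox10, the defining gene of migrating neural crest, lay under the mark at 3.22 dorsally and 2.97 ventrally. No marker was at 0, since log2 values of these arrays have no true zero. The sides were not uniform within a list: Osr1 of the coelomic list was higher dorsally, with a difference of -0.62, and Tbx18 of the sclerotome list and Krt18 of the notochord list ventrally, with 0.88 and 0.90. The coelomic list, with a median difference of 0.94, and the smooth muscle list, with 0.44, were higher on the side of Sema6a, Nrp1 and Sema6d. The sclerotome list, with -0.70, was higher on that of Sema5a, Sema3a and Sema3f. So were the notochord, myotome and neural crest lists, with -0.37, -0.35 and -0.22. The part of all these lists in those differences, and that of the endothelial markers past the limit, was not tested.

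**Figure D4:**
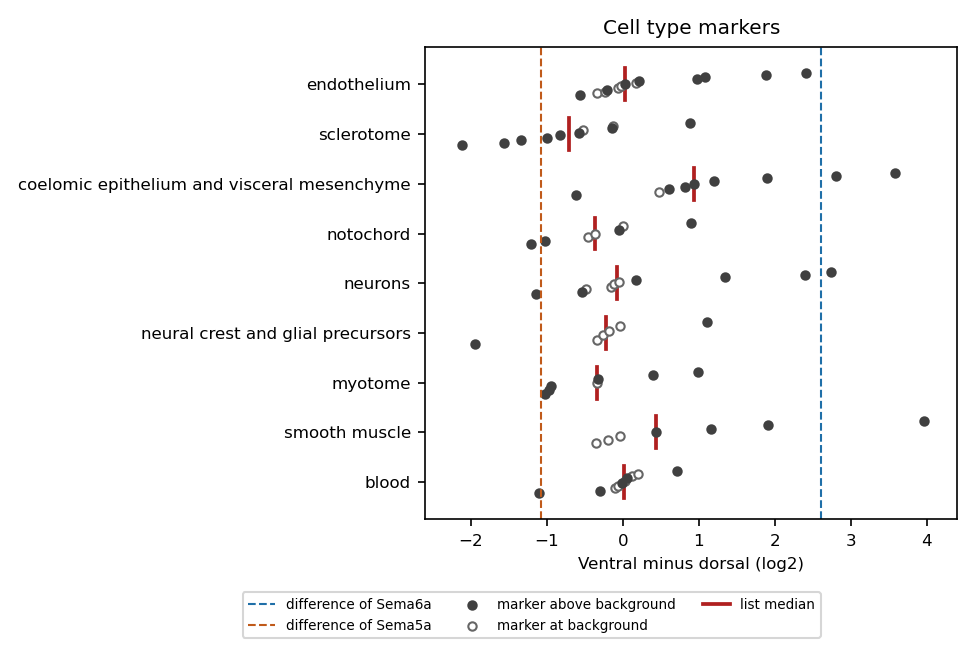
Ventral minus dorsal log2 difference of each marker gene by cell type list, filled where the gene was above background on an array and open where it was not, with the list median as a bar. Dashed lines give the differences of Sema6a, 2.61, and Sema5a, -1.07; the medians of the coelomic and sclerotome lists lie at 0.94 and -0.70.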

How the data were processed

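The deposited values are log2 expression levels, 1 per gene and array, made by the authors with RMA in Affymetrix Expression Console, per the submitters' processing notes; the sources used here give no version, genome build or list of arrays normalized together. Per the labels' protocols, 200 to 1000 pg of RNA was amplified, which can distort single transcripts.

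Of 25429 features, 24675 had 1 symbol; the 754 without one were left out. Arrays were assigned by title. Counts were taken over all members and features, without a filter on level or a test. A fold whose lower value was at background is a lower bound against the mark of 3.92; with both there, no fold is given. Of each pathway list, up to 5 genes with the largest differences among those above background on an array were named. VEGF ligands and receptors, Rap1a and Mras were named besides. Members and lists were chosen with earlier results of these data known, and the motifs and some named markers after their values were seen. Steps were tested on simulated data with noise that did not vary with level. Changes were planted only in features above background and were wider than 2-fold. Recovery of changes near that limit or near background was therefore not tested. Alternatives covered scaling, background mark, filter, fold limit and member set; those for the lists were added after seeing the data. Python 3.11.15, numpy 2.4.6, pandas 2.3.3, statsmodels 0.14.6 and matplotlib 3.10.9 were used.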

Additional observations from a re-analysis of the deposited data

How the results depend on the processing

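The 8 members above background on an array kept their direction under quantile normalization, centring on the median of all features and a loess on mean level, while 7 of the members at background on both arrays changed sign under at least 1 of these. Sema6a stayed at least 2-fold apart under the 3 scalings. Sema5a did not: after centring and after the loess its difference was -0.97 and -0.96, so that the count in dorsal tissue became 0, as it did with protein-coding genes as the reference for centring, while quantile normalization gave -1.10. At a fold limit of 1.5 the counts were 3 and 3, and at a limit of 3 the dorsal count was 0. With the background mark at the 99th percentile, 5.48, no member was above it, giving 0 on each array and 0 calls each way; at the 90th percentile, 3.39, there were 13 in dorsal and 11 in ventral tissue. The median member difference was -0.020 after quantile normalization, -0.030 after centring, 0.017 after the loess, -0.038 with protein-coding genes as reference, -0.087 over the 17 members whose higher value reached the median level of all genes, and -0.123 without the Plxdc genes. Over all features above background, the ventral share of those at least 2-fold apart was 67.7%, with 58.6% after quantile normalization and 73.8% after centring. No paired analysis was possible because each tissue has 1 array. The single array per tissue limits every value, and levels close to background limit those of the members.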
